A study of Mus musculus with 6 samples.

Results

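The genes examined here are 10 proneural and intermediate progenitor genes, most of them regulators of the step from cortical progenitor to neuron: Neurog1, Neurog2, Neurod1, Neurod4, Eomes, Insm1, Hes6, Btg2, Gadd45g and Mfap4. They were taken by gene symbol from a table of 17920 mouse genes, and all 10 were found in it. The table holds RNA-seq of cultured cortical cells from E13.5 mouse embryos, with 3 control libraries (labelled WT) and 3 libraries after knockdown of Ybx1 (labelled KD). Ybx1 encodes an RNA-binding protein that reads 5-methylcytosine in mRNA. According to the study's methods, dissociated cells received lentiviral hairpin RNA from the pLKO.1-Puro system, against Ybx1 in KD and of an unrelated control sequence in the control cells, and both groups were selected with puromycin before lysis in Trizol. The control cells were therefore infected and drug-selected as well, although their label is WT. GEO's design text names a Ybx1 deletion, whereas the methods describe a knockdown. The hairpin used, of the pair listed against Ybx1, was not stated. GEO's labels give brain as the tissue of all libraries.

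The libraries held between 16294635 and 16497505 estimated counts. Values are given as normalised counts (CPM, counts on a scale of 1000000 per library after scaling) with mean ± SD and n = 3 libraries per group, or as TPM (a scale of 1000000 per library that corrects for transcript length) where levels of different genes are compared. Adjusted p values are from edgeR's two-sided quasi-likelihood test with Benjamini-Hochberg adjustment over the 13669 genes tested, and a change was called at 0.05. Ybx1 stood at 618, 615 and 653 CPM in WT replicates 1, 2 and 3 and at 98.3, 92.2 and 159 CPM in the KD replicates (log2 fold change -2.43, SE 0.18, adjusted p = 1.82e-04). Its KD level was the highest in replicate 3. Cortical neuron genes were present as the label requires, with Tbr1 at 250 ± 30.6 CPM in WT, and genes of ventral forebrain neurons were present beside them, with the interneuron gene Sst at 637 ± 202 CPM. In such mixed cultures, more cells of a type and more RNA per cell cannot be told apart.

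In the dorsal cortex, radial glia divide at the ventricle and give rise either to neurons directly or to intermediate progenitors, which divide again before their daughters become glutamatergic neurons. Proneural basic helix-loop-helix (bHLH) factors such as Neurog1 and Neurog2 start this step, raise the Notch ligand Dll1, and are kept low in neighbouring cells by Notch signalling through Hes1 and Hes5. Neurod1 and Neurod4 are later bHLH factors of the same cascade, Eomes (Tbr2) is the T-box factor that marks intermediate progenitors, and the zinc finger factor Insm1 promotes their formation.

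Of the 10 genes, 6 rose in KD and none fell. Neurog2, Eomes and Insm1 rose by 2.99-, 2.97- and 2.68-fold, Neurod1 by 1.86-fold, and Hes6 and Btg2 by 1.25- and 1.24-fold. Gadd45g and Mfap4 had fold changes of 1.29 and 1.78 and did not pass the test, while Neurog1 and Neurod4 were too sparsely counted to be tested. Among all genes tested, 1646 or 12% were called higher and 1631 or 11.9% lower. On log2(TPM + 1) with limma-trend, 2107 genes were higher and 1053 lower, and 8 of the 10 members were called higher. By log2 fold change, Neurog2 ranked 11, Eomes 12 and Insm1 17 of the 13669 genes, and the 8 tested genes had a median of 0.87 against -0.00 for all genes, given as a description since the members were chosen with earlier results known. Each of these 8 had an unadjusted p under 0.05 by edgeR in the direction of KD and none in the other direction. The same count was 8 by limma-voom and 7 by DESeq2. The share of all genes with such an unadjusted p was not computed, so these counts have no background to compare with. DESeq2 and limma-voom also called 6 members higher and none lower. Over all genes, DESeq2 called 1429 of 17893 higher, or 7.99%, and limma-voom 1637 of 13669. Without replicate 2 of both groups, where 2 libraries per group remain, Neurog2 and Insm1 were the members still called and 135 genes were called higher in all. Leaving out replicate 1 or replicate 3 of both groups also leaves 2 libraries per group. In those fits 1025 and 1336 genes were called higher, with 5 members in each. In 8 of the 10 genes every KD library lay above every WT library, the exceptions being Neurog1 and Mfap4, and 7 of these 8 were among the genes tested. The same held for 2864 of all genes tested, or 21%.

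**Figure D1:**
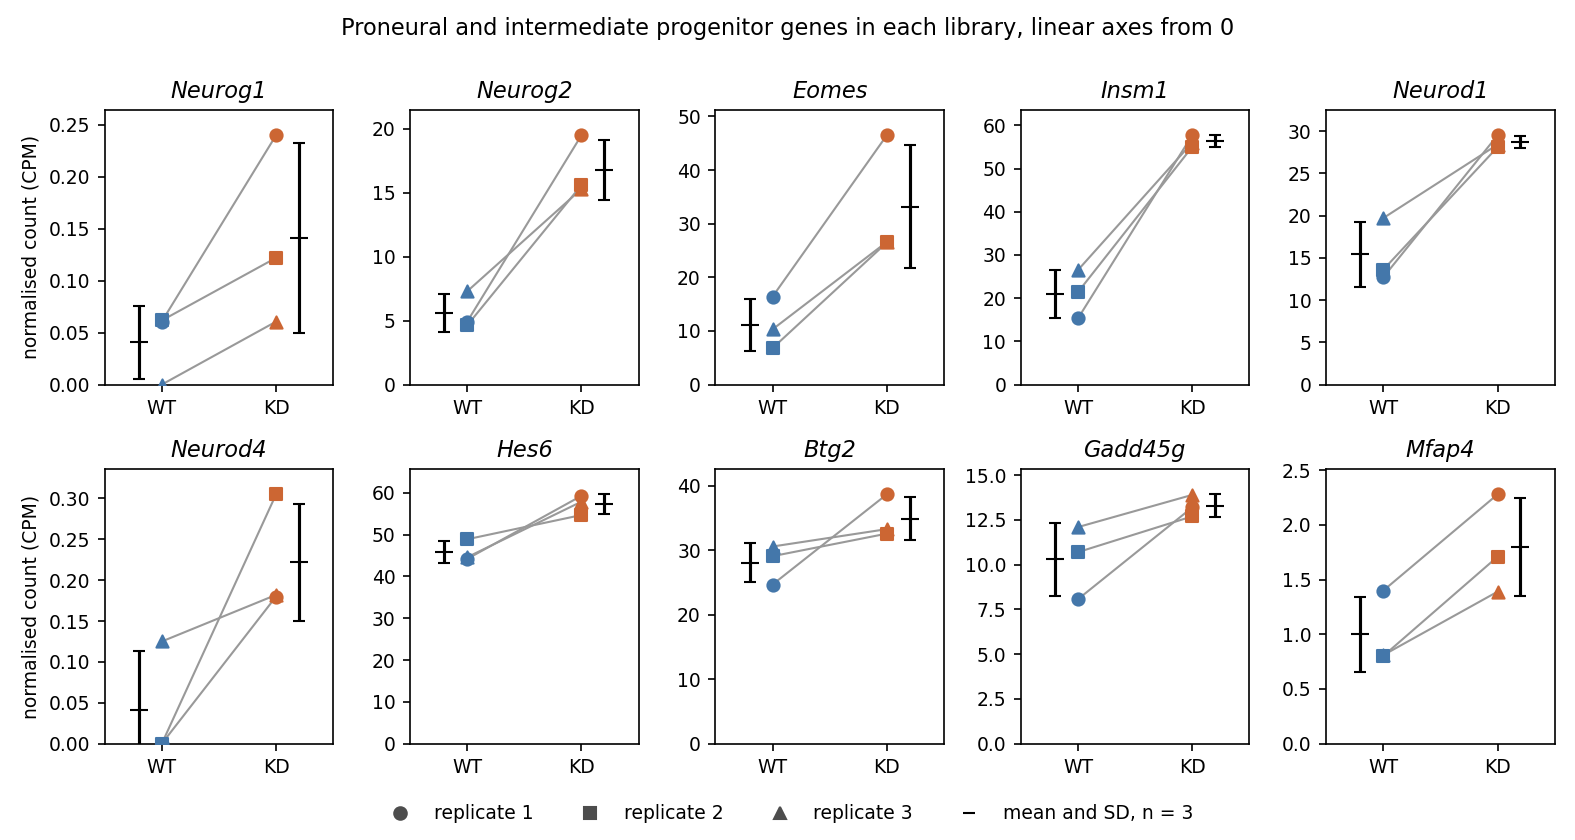
Normalised counts (CPM, linear axes from 0, with a scale of its own for each gene) of the 10 genes in the 3 WT (blue) and 3 KD (orange) libraries. Grey lines join libraries with the same replicate number, marker shapes give that number, black bars show the mean and SD, and the lower SD bar of Neurod4 in WT is clipped at 0. All lines rise from left to right, most steeply relative to their start in Neurog2, Eomes and Insm1 among the tested genes.

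Libraries with the same replicate number deviated together from their group means, so the numbers were also used as a block. With the block, 2539 genes or 18.6% were called higher and 2470 lower, and all 8 tested members were called higher. All 10 genes were higher in KD in each of the 3 same-numbered pairs. The share of all genes with that pattern was not computed. It is at least 21% of the genes tested, the share in which every KD library lay above every WT library. For Neurog1 and Neurod4 the counts behind this were near the floor of 3 counts.

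The neurogenins Neurog2 and Neurog1 differed in how well they could be measured. Neurog2 is the main proneural factor of the dorsal cortex. Its counts were 81, 75 and 117 in WT and 324, 255 and 253 in KD, or 4.92, 4.63 and 7.29 against 19.5, 15.6 and 15.3 CPM. The WT libraries were all below the lowest KD library, and WT replicate 3 was the highest of its group. The means were 5.61 ± 1.46 and 16.8 ± 2.33 CPM (log2 fold change 1.58, SE 0.18, adjusted p = 9.02e-04). Within pairs the log2 difference of CPM + 0.5 was 1.88, 1.65 and 1.02. Neurog1, its close relative with an overlapping role in the early cortex, had counts of 1, 1 and 0 in WT and 4, 2 and 1 in KD. These groups overlapped, and a library with no count at this depth allows up to 0.184 CPM (3 counts). The summed counts were 2 against 7, a ratio of 3.5 with an exact binomial 95% interval of 0.666 to 34.5 that covers counting error only. The estimated counts of all 10 genes were whole numbers in every library.

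Neurod1 and Neurod4 act after the neurogenins. Neurod1 had counts of 210, 221 and 317 in WT and 490, 460 and 469 in KD, which gave 12.7, 13.6 and 19.7 against 29.5, 28.1 and 28.4 CPM. The KD libraries were close to each other and the groups did not overlap. From 15.4 ± 3.81 CPM the level rose to 28.7 ± 0.721 CPM (log2 fold change 0.90, SE 0.15, adjusted p = 0.00371). The pairs differed by 1.18, 1.01 and 0.52. Neurod1 lies inside the annotated span of Cerkl on the same strand and opposite a long noncoding RNA gene, Gm26755, and whether strand was used in counting was not stated. Cerkl itself had 1, 2 and 3 counts in WT and 5, 6 and 8 in KD, far below Neurod1. Neurod4 had no counts in WT replicates 1 and 2 and 2 in WT replicate 3, against 3, 5 and 3 in KD. The groups did not overlap, but all 6 values were near the floor of 3 counts. Its sums of 2 and 11 gave a ratio of 5.5 with a counting interval of 1.2 to 51.1. Without a filter on low counts, neither Neurod4 (adjusted p = 0.151) nor Neurog1 (adjusted p = 0.335) passed the test.

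Eomes and Insm1 are the intermediate progenitor factors of the group. Eomes had counts of 270, 110 and 166 in WT and 773, 434 and 439 in KD, or 16.4, 6.79 and 10.3 against 46.5, 26.5 and 26.6 CPM. It was the most variable of the 8 between libraries of 1 group, with replicate 1 highest in both groups, and no WT library reached the KD range. The means were 11.2 ± 4.85 and 33.2 ± 11.5 CPM (log2 fold change 1.57, SE 0.31, adjusted p = 0.00813). Because replicate 1 was high in both groups, the pairs were less spread than the libraries, at 1.48, 1.89 and 1.32. The SE fell from 0.31 to 0.10 with the block.

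Insm1 has a single exon, and it also acts in endocrine cells. Its counts were 252, 346 and 425 in WT and 960, 902 and 924 in KD, giving 15.3, 21.4 and 26.5 against 57.7, 55.0 and 56.0 CPM. The WT libraries spread widely and the KD libraries lay within a narrow range far above them. Insm1 rose from 21.0 ± 5.59 to 56.3 ± 1.35 CPM (log2 fold change 1.42, SE 0.15, adjusted p = 6.97e-04). The pairs differed by 1.88, 1.35 and 1.07.

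Hes6 and Btg2 changed far less than these. Hes6 belongs to the Hes family but counters Hes1 and promotes neuronal differentiation. Its counts were 729, 792 and 716 in WT and 987, 897 and 955 in KD, which corresponds to 44.2, 48.9 and 44.6 against 59.3, 54.7 and 57.9 CPM. The groups did not overlap and each was tight, at 45.9 ± 2.58 and 57.3 ± 2.35 CPM (log2 fold change 0.32, SE 0.06, adjusted p = 0.00758). Btg2 (Tis21) is an antiproliferative gene that marks progenitors about to make neurons, and it is also a known target of p53. Its counts of 407, 472 and 491 in WT and 644, 535 and 550 in KD gave 24.7, 29.1 and 30.6 against 38.7, 32.6 and 33.3 CPM. The highest WT and the lowest KD library were only 30.6 and 32.6 CPM. Btg2 was called higher by a small margin (log2 fold change 0.31, SE 0.10, adjusted p = 0.0473), and its pairs differed by 0.64, 0.16 and 0.12. Without replicate 1 of both groups its log2 fold change was 0.15 and its adjusted p 0.262. Leaving out WT replicate 1 or KD replicate 1 alone gave 0.23 both times, with adjusted p values of 0.122 and 0.133.

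Gadd45g and Mfap4 were not called, but both passed with the block. Gadd45g is a stress and growth arrest gene that newly forming cortical neurons express in a brief pulse. Its counts were 133, 174 and 194 in WT and 219, 208 and 230 in KD, or 8.07, 10.7 and 12.1 against 13.2, 12.7 and 13.9 CPM. All KD libraries lay above WT replicate 3, the highest of the controls, by a small distance. The means were 10.3 ± 2.04 and 13.3 ± 0.631 CPM (log2 fold change 0.37, SE 0.15, adjusted p = 0.10, and 0.0213 with the block). Without WT replicate 3 the log2 fold change was 0.50 and the adjusted p 0.0429. Mfap4 encodes an extracellular microfibril-associated glycoprotein and was the least counted of the 8 tested genes, with 23, 13 and 13 counts in WT and 38, 28 and 23 in KD. In CPM this was 1.4, 0.802 and 0.81 against 2.28, 1.71 and 1.39. WT replicate 1 lay just above KD replicate 3, so the groups overlapped, although each KD library exceeded the WT library of its number. Its log2 fold change was 0.83 (SE 0.31, adjusted p = 0.0797, and 0.0177 with the block), and without WT replicate 1 it was 1.15 with an adjusted p of 0.0452. Mfap4 shares 89 bases with Mapk7 on the opposite strand, a gene with between 1365 and 1695 counts per library that was lower, not higher, in all KD libraries.

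**Figure D2:**
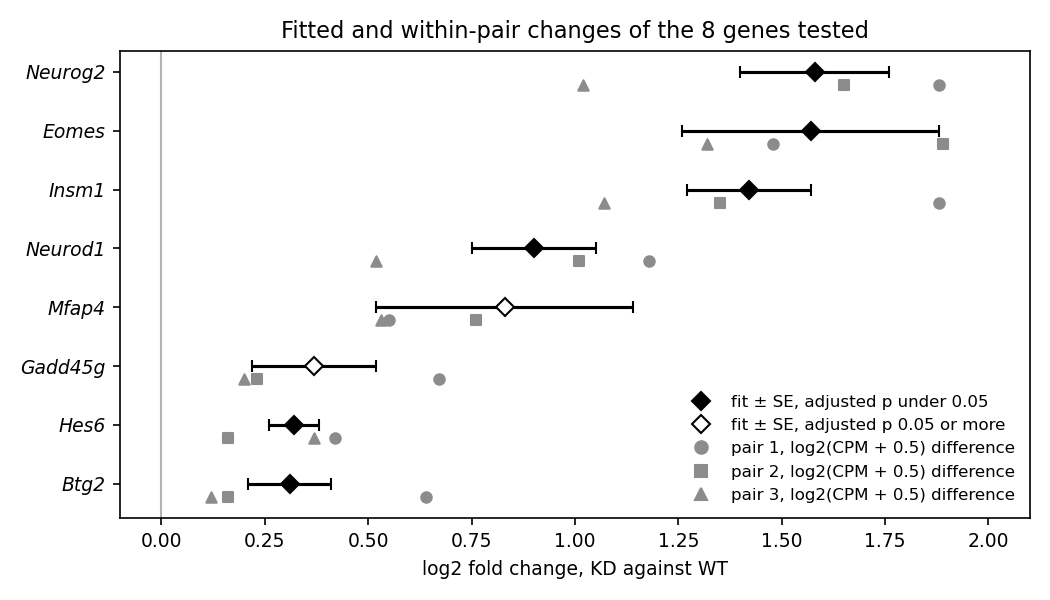
Log2 fold change of KD against WT for the 8 genes tested, as the edgeR fit with its SE (diamonds, filled where the adjusted p was under 0.05) and as the difference within each same-numbered pair on log2(CPM + 0.5) (grey markers). Every point lies to the right of 0, Neurog2, Eomes and Insm1 above 1, and the pair 3 marker is leftmost in all genes but Hes6.

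Pair 3 gave the smallest differences of the group. The difference was smallest in pair 3 for 8 of the 10 genes, and for Neurog1 and Hes6 in pair 2. Pair 3 was also smallest for 57.8% of all genes called higher. The median difference of the 10 genes was 0.66, 0.72 and 0.44 in pairs 1, 2 and 3, and that of all genes called higher was 0.37, 0.35 and 0.28. The Ybx1 difference was -2.65, -2.73 and -2.04 in the same pairs, so it was also the smallest in size in pair 3. Whether the remaining Ybx1 level had a part in this was not tested.

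Promoter sequences are shown for Neurog2 and Eomes, which had the largest log2 fold changes among the 8 tested genes, and for Gadd45g, which was not called. RefSeq windows of 300 bases (250 before and 50 after the transcript start, GRCm38.p6) were matched for 8 of the 10 genes, in 10 windows because Hes6 and Neurod4 have several starts. Insm1 and Mfap4 were not matched. The 250 bases before the start are printed 5′ to 3′ on the strand of the gene, which is the plus strand in each case. They cover chr3:127632886-127633135 for Neurog2, chr9:118477939-118478188 for Eomes and chr13:51846425-51846674 for Gadd45g, with capitals for E-boxes (CANNTG), CCAAT boxes on either strand, and TATAAA or TATATA near the start.
Neurog2: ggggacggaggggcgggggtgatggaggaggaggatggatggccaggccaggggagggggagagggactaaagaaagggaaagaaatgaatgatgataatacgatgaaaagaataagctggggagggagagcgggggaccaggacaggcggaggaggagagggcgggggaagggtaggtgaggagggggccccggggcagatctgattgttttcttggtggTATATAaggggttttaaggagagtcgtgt
Eomes: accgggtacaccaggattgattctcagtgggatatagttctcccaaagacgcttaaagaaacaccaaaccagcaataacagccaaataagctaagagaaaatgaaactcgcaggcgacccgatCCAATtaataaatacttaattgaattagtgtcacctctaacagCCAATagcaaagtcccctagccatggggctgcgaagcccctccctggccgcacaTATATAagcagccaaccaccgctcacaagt
Gadd45g: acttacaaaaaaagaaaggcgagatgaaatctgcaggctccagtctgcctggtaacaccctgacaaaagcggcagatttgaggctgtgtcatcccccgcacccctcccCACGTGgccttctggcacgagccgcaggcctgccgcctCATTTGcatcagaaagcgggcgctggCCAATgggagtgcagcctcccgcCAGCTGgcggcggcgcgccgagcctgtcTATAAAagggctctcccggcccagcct

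The E-box is the core bound by bHLH dimers, and it was present in the windows of 5 of the 8 genes and in 72.3% of all 32851 RefSeq windows. Its proneural form CAGATG (or CATCTG), a subset of the E-box, was in none of the 8 and in 17.2% of all windows. The N-box CACNAG, a core of Hes repressors, was in 6 of 8 and in 42.5% of all windows, and the Rbpj letters TTCCCAC were in none and in 6.38%. The inverted CCAAT box ATTGG, the Y-box after which Ybx1 was named, was in 5 of 8 (Neurog1, Eomes, Hes6, Btg2 and Gadd45g) and in 37.4% of all windows. These motifs were searched on both strands, and the absence of the letters from a window says nothing beyond it. A last search, chosen after the sequences had been read, was for TATAAA or TATATA on the gene's strand with its first base 40 to 20 bases before the start. Such letters stood in a window of 5 of the 8 genes, at -29 in Neurog2, -30 in Eomes, -31 in Neurod1, -28 in Hes6 and -27 in Gadd45g, and in 2.74% of all windows. They were found in neither Neurog1, Neurod4 nor Btg2, so the matches did not separate the genes with large changes from those with small ones. The letters and the range were chosen from these sequences, so 5 of 8 cannot be weighed against 2.74%. Anywhere in the window and on either strand, the same letters stood in 17.1% of all windows, and the 8 genes were not counted that way. For every motif the counts of genes take a match in any window of the gene, whereas the shares are per single window. Hes6 and Neurod4, with several windows, had more room for a match.

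**Figure D3:**
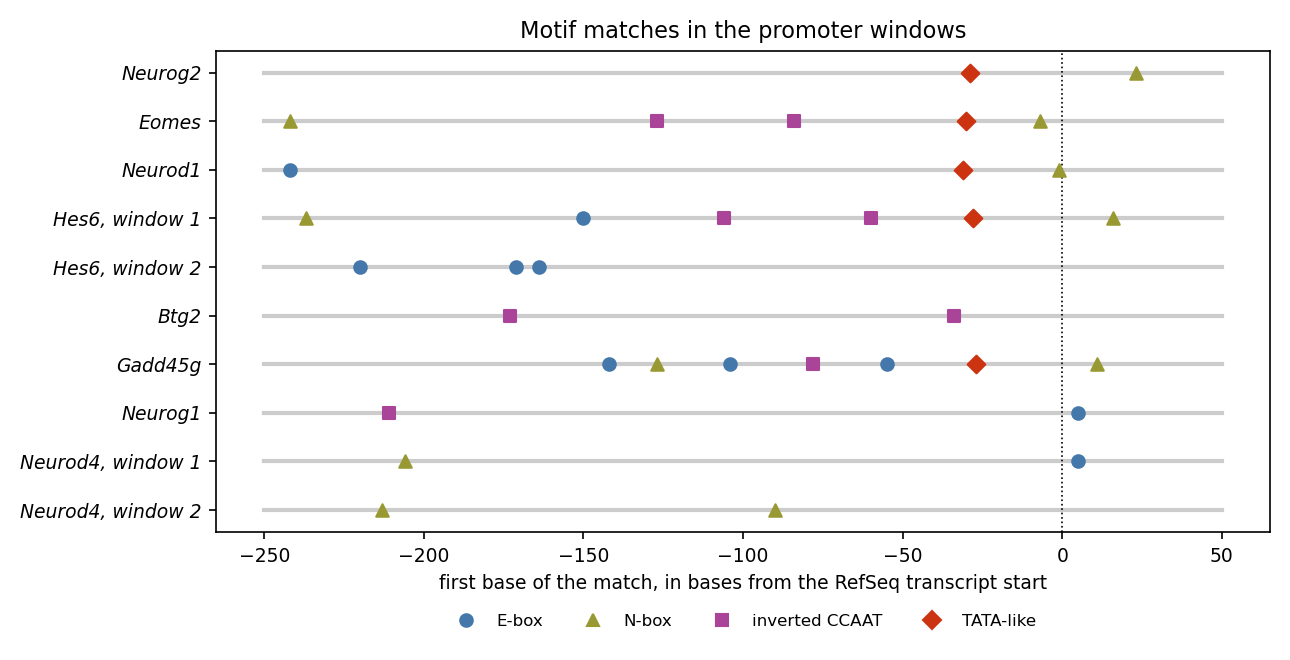
Positions of motif matches in the 10 RefSeq promoter windows of 8 genes, as the distance in bases of the first base of the match from the transcript start (dotted line). Matches on both strands are drawn for the E-box, N-box and inverted CCAAT, and on the gene's strand near the start for the TATA-like letters, which line up between -31 and -27 in Neurog2, Eomes, Neurod1, Hes6 and Gadd45g.

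Per transcript length, Hes6 was the most abundant of the 10 in WT at 87.6 ± 4.07 TPM. It was followed by Gadd45g at 26 ± 5.35, Btg2 at 20 ± 2.28, Insm1 at 15.3 ± 4.2 and Neurod1 at 13.9 ± 3.61 TPM. Each neighbouring pair from Gadd45g down to Neurod1 overlapped between libraries. Eomes at 6.52 ± 2.84 and Neurog2 at 5.65 ± 1.57 TPM overlapped too and lay below all of these. Mfap4 followed at 1.6 ± 0.526 TPM, and Neurog1 and Neurod4 stayed under 0.1 TPM in every WT library. In KD, Insm1 moved from the fourth place to the second, at 42.4 ± 1.26 TPM, and Btg2 from the third to the fifth by mean, at 25.8 ± 2.62 TPM. The KD libraries of Neurod1 (26.09 to 27.73 TPM), Btg2 (24.17 to 28.8) and Eomes (15.83 to 28.34) overlapped, so their order was not resolved. By mean, Eomes, Neurog2, Mfap4, Neurog1 and Neurod4 kept their places.

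The 10 genes together made up 161.5, 176.9 and 191.8 TPM in WT and 306.9, 272.2 and 274.8 TPM in KD. Hes6 held 52.2%, 52.1% and 45.0% of that sum in WT and 38.6%, 40.3% and 41.1% in KD. The share of Insm1 went from 6.89%, 8.68% and 10.2% to 14.3%, 15.4% and 15.1%. The balance within the group thus differed between WT and KD without overlap for both genes. The TPM ratio of Insm1 to Neurod1 was 0.969, 1.26 and 1.08 in WT against 1.58, 1.58 and 1.59 in KD. That of Neurog2 to Neurod1 was 0.418, 0.387 and 0.414 against 0.748, 0.623 and 0.606. Neither ratio overlapped between the groups. The ratio of Eomes to Neurog2, the factors with nearly the same fold change, was 1.99, 0.832 and 0.819 in WT against 1.37, 0.978 and 1.0 in KD, and overlapped.

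Other genes of intermediate progenitors were examined as a list of 11, all tested, of which 7 rose and none fell by edgeR, DESeq2 or limma-voom, also at an unadjusted p. Their median log2 fold change was 0.59. Nhlh1, a bHLH gene of new neurons, rose from 0.47 ± 0.226 to 2.26 ± 0.271 CPM (log2 fold change 2.24, adjusted p = 0.00208). Its counts were 12, 5 and 6 in WT and 41, 32 and 39 in KD. WT replicates 2 and 3 thus lay below the minimum count of 10 used in the filter, which all KD libraries exceeded. The size of its rise therefore rests on few WT counts. The transcription factor gene Tfap2c rose from 4.03 ± 1.69 to 10.8 ± 2.78 CPM (1.41, adjusted p = 0.00902), and the somatostatin receptor gene Sstr2 from 8.29 ± 1.35 to 17.9 ± 0.752 CPM (1.11, adjusted p = 8.59e-04). The Notch-modifying glycosyltransferase gene Mfng rose from 4.80 ± 0.892 to 11.5 ± 1.44 CPM (1.26, adjusted p = 0.00139). The Notch ligand genes Dll1 and Dll3, which belong to this list and are raised by proneural factors, had log2 fold changes of 0.18 and 0.16 and did not pass the test (adjusted p = 0.169 and 0.177). The difference between their change and that of Neurog2 was not tested.

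The Notch pathway held 25 tested genes, of which 6 were called higher and 2 lower, with a median of 0.16. Mfng led those called, followed by the ligand gene Jag1 (log2 fold change 0.78, adjusted p = 0.0205) and the receptor gene Notch2 (0.75, adjusted p = 0.0116). The receptor gene Notch1 had 83.4 ± 11.5 CPM in WT and 103 ± 13.8 in KD (0.31, adjusted p = 0.0800, and 0.0139 with the block). The effector Hes1, a repressor of proneural genes, rose from 4.04 ± 0.408 to 5.68 ± 0.635 CPM (0.49, adjusted p = 0.0445). Hes5, the more abundant effector, stood at 23.4 ± 4.70 and 24.6 ± 1.62 CPM (0.07, adjusted p = 0.736). With the block, 9 genes of the pathway were called higher and 5 lower. Without WT replicate 2 the count was 2 higher and 1 lower, and without both replicate 2 libraries no gene of the pathway was called.

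Among 14 tested bHLH partners and inhibitors, 5 were called higher and 2 lower (median 0.06), and DESeq2 called 3 higher and 1 lower. Without WT replicate 2, WT replicate 3 or KD replicate 3, 3 were called higher, and without any single library but WT replicate 3, 1 was called lower. The oligodendrocyte lineage gene Olig1 fell from 197 ± 27.6 to 135 ± 16.6 CPM (log2 fold change -0.54, adjusted p = 0.0105). Of the Id genes, whose products sequester bHLH partners, Id4 rose (0.58, adjusted p = 0.0346), while Id1 was at -0.21 (adjusted p = 0.250), Id2 at -0.04 (adjusted p = 0.897) and Id3 at -0.30 (adjusted p = 0.342).

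Family relatives of the 10 genes did not all follow them. Of 15 tested relatives 6 rose and 1 fell (median 0.15). Neurod2, the neuronal relative of Neurod1, rose from 204 ± 32.4 to 281 ± 19.7 CPM (log2 fold change 0.46, adjusted p = 0.0162). Neurod6 went from 163 ± 43.1 to 255 ± 62.5 CPM with overlapping groups (0.65, adjusted p = 0.0584, and 3.22e-07 with the block). Tbr1, the T-box relative of Eomes in postmitotic neurons, was at 250 ± 30.6 and 276 ± 15.6 CPM (0.14, adjusted p = 0.262, and 0.0483 with the block). Btg1 rose from 65.5 ± 7.06 to 96.4 ± 6.92 CPM (0.56, adjusted p = 0.00285) and Btg3 from 7.0 ± 0.626 to 10.3 ± 1.3 CPM (0.56, adjusted p = 0.0179), both with larger log2 fold changes than Btg2, a difference that was not tested. Mfap2 rose by 0.54 on the log2 scale (adjusted p = 0.00599). The one relative that fell was Hes7, a low-count clock gene of the paraxial mesoderm (2.17 ± 0.053 to 1.17 ± 0.070 CPM, -0.89, adjusted p = 0.0138). DESeq2 called no relative lower, and the call of Hes7 was lost without WT replicate 2 and without any same-numbered pair.

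**Figure D4:**
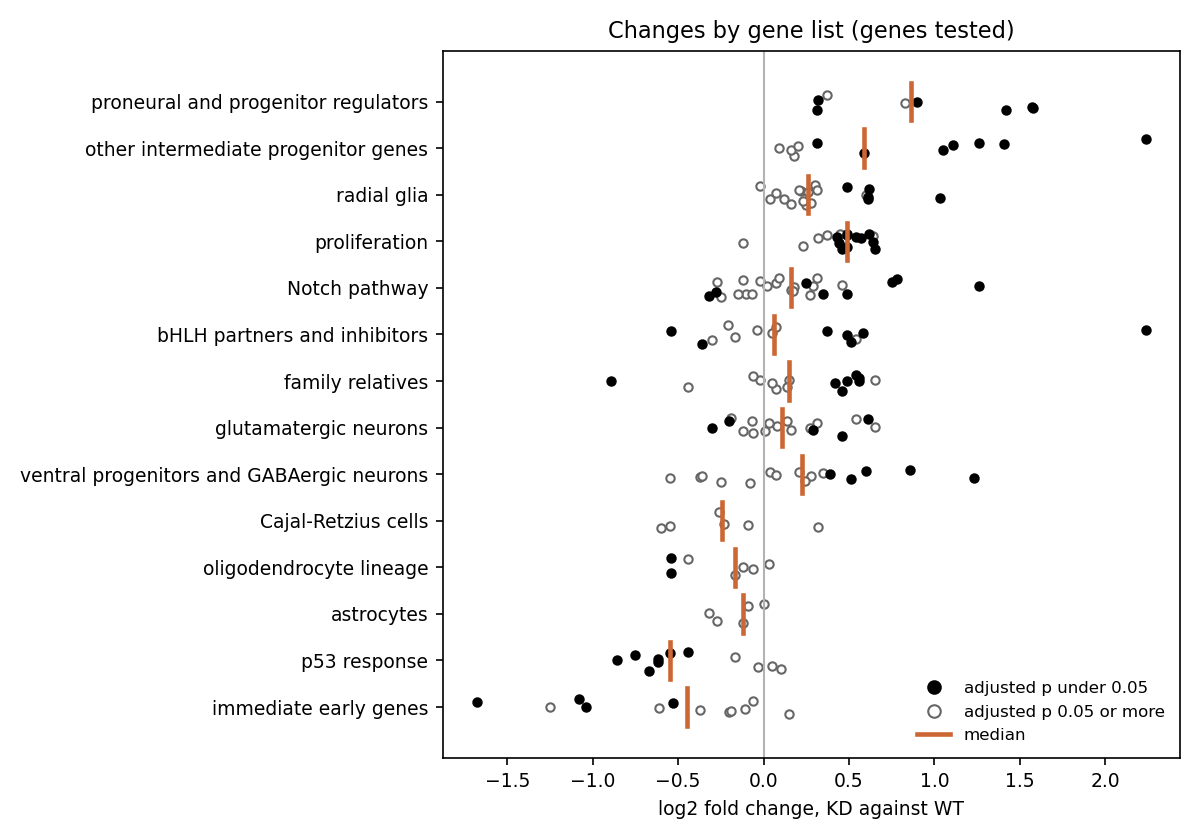
Log2 fold change of KD against WT for the tested genes of 14 lists, with 1 point per gene (filled where the adjusted p was under 0.05) and the median of each list as an orange bar. Some genes stand in several lists. The proneural and progenitor regulators have a median of 0.87, the other intermediate progenitor genes of 0.59, proliferation genes of 0.49 and p53 response genes of -0.55.

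Radial glia and proliferation genes were examined as neighbouring cell states. Of 19 radial glia genes, 5 rose, none fell and 14 were not called (median 0.26), among them Gli3, from 16.6 ± 2.19 to 33.9 ± 7.69 CPM (log2 fold change 1.03, adjusted p = 0.00310), and Lhx2 (0.62, adjusted p = 0.0106). Pax6, the radial glia factor upstream of Neurog2 and Eomes, rose from 21.2 ± 3.59 to 32.5 ± 5.84 CPM (0.61, adjusted p = 0.0185), though its estimated counts were fractional in all libraries, as happens where reads are shared with other genes. The TPM ratio of Eomes to Pax6 was 0.663, 0.376 and 0.515 in WT and 1.2, 0.956 and 0.891 in KD, without overlap. Proliferation genes rose in 11 of 17 and fell in none (median 0.49), with Mki67 going from 109 ± 10.6 to 170 ± 34.2 CPM (0.65, adjusted p = 0.00885). With the block, 12 radial glia and 15 proliferation genes were called higher. Without WT replicate 2 the counts were 3 and 5, and without both replicate 2 libraries no gene of either list was called. KD replicate 1 was the highest KD library for 8 of the 10 regulators.

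Of 18 genes of glutamatergic neurons, 3 were called higher and 2 lower (median 0.11), near the 12% and 11.9% of all genes, and 9 were higher and 3 lower with the block. Without KD replicate 2 no gene of this list was called lower, without KD replicate 3 the number higher was 5, and without any other single library 1 was called lower. The migration gene Dcx rose by 0.29 on the log2 scale (adjusted p = 0.00518), whereas the axonal gene Mapt fell from 1560 ± 75.6 to 1270 ± 115 CPM (-0.30, adjusted p = 0.0147). Ventral progenitor and GABAergic neuron genes were called higher in 5 of 16 and lower in none by edgeR (2 at an unadjusted p, and 1 by DESeq2), with a median of 0.22. Dlx2, a ventral progenitor factor, rose from 30.5 ± 3.11 to 71.5 ± 15.5 CPM (1.23, adjusted p = 9.59e-04), and Gsx2 rose as well (0.86, adjusted p = 0.0258). The summed level of this list was 4390 to 7350 TPM in WT and 3970 to 5860 TPM in KD, so the groups overlapped. None of 6 Cajal-Retzius genes passed (median -0.25), with Reln at 437 ± 48.0 and 411 ± 42.2 CPM, and 1 had an unadjusted p under 0.05 in the direction of a lower level.

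Of the markers of the other cell types that follow, Pdgfrb alone was called higher, and the part of these cells in the results above was not tested. Of 7 oligodendrocyte lineage genes, 2 fell, Olig1 and Cspg4 (-0.54, adjusted p = 0.00994), and none rose. None of 5 tested astrocyte genes passed by edgeR, DESeq2 or limma-voom, or at an unadjusted p. Of 8 microglial genes only C1qa was counted enough to be tested (-0.58, adjusted p = 0.483), and the summed level of the list was 2.99 to 6.06 TPM in WT and 3.77 to 5.14 in KD. The endothelial defining genes Cdh5, Cldn5 and Tek had at most 3 counts in any library, while the pericyte gene Pdgfrb rose from 5.51 ± 1.65 to 9.08 ± 1.12 CPM (0.72, adjusted p = 0.0318). This call was lost when any single library other than WT replicate 3 was left out. Rgs5, the other mural gene of the list, was too sparsely counted to be tested. Its counts were 13, 12 and 2 in WT and 3, 9 and 3 in KD, with sums of 27 and 15, so they did not rise with Pdgfrb. The endothelial and mural list summed to 3.06 to 4.03 TPM in WT and 4.33 to 5.45 in KD, which did not overlap. Pdgfrb was the largest part of this sum in every library, at 1.74, 1.78 and 2.97 TPM in WT and 3.85, 3.17 and 3.92 in KD. The other tested genes, Pecam1 (0.12, adjusted p = 0.831) and Kdr (-0.05, adjusted p = 0.957), were not called. The sum therefore does not describe the list as a whole. Meningeal genes summed to 2.90 to 5.83 TPM in WT and 2.46 to 5.23 in KD, and neither of the 2 tested passed.

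As Btg2 is a target of p53 and Gadd45g a stress gene, p53 response and immediate early genes were set beside them. Of 11 tested p53 response genes 7 fell and none rose (median -0.55). The cell cycle inhibitor gene Cdkn1a fell from 91.4 ± 7.44 to 50.3 ± 5.86 CPM (log2 fold change -0.86, adjusted p = 6.88e-04), and the death gene Bbc3 from 34.6 ± 3.08 to 20.5 ± 1.42 CPM (-0.75, adjusted p = 9.02e-04). Of the 11 tested, 4 were not called. Btg2 stood at 0.31, and whether p53 had a part in its change was not tested. Of 12 immediate early genes 4 fell and none rose (median -0.45), led by Fos, from 12.7 ± 5.25 to 3.96 ± 0.908 CPM (-1.68, adjusted p = 0.00591). The counts of these lists rested in part on the second replicates. Without both replicate 2 libraries, 2 of the other intermediate progenitor genes, 1 ventral gene and no bHLH gene, family relative or glutamatergic gene was called higher, while 4 p53 response genes and no immediate early gene were called lower. Without KD replicate 2 alone, 3 family relatives and 2 glutamatergic genes were called higher and 2 immediate early genes lower.

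The genes whose log2 CPM over the 6 libraries was most like the mean of the 8 tested regulators were Nasp, Zfp746, Meis2, Wwtr1 and Jam2, with Pearson's r between 0.9982 and 0.9987. They were taken from 11432 other genes with a mean of at least 5 CPM, of which 512 had an r above 0.95. Since the 6 points fall into a WT and a KD cluster, a high r mostly restates that a gene was higher in KD in even steps. Among them Wwtr1, a Hippo pathway coactivator gene, went from 11.2 ± 1.15 to 19.6 ± 1.68 CPM, and the homeobox gene Meis2 from 245 ± 14.2 to 343 ± 19.2 CPM.

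In GENCODE M21 on GRCm38, Neurog2 lies at chr3:127633135-127635631 (plus strand), Eomes at chr9:118478212-118486132 (plus, 6 exons), Insm1 at chr2:146221921-146225020 (plus, 1 exon) and Neurod1 at chr2:79452521-79456751 (minus, 2 exons, of which 1 is coding). Hes6 lies at chr1:91411483-91414038 (minus, 4 exons) and Btg2 on the same chromosome at chr1:134075170-134079120 (minus, 2 exons). Gadd45g lies at chr13:51846678-51848468 (plus, 4 exons) and Neurog1 on that chromosome at chr13:56250478-56252163 (minus, 1 exon). Neurod4 lies at chr10:130268152-130280240 (minus, 2 exons) and Mfap4 at chr11:61485431-61488900 (plus, 5 exons). Eomes overlaps an antisense gene, Gm33460, over 574 bases.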

How the data were processed

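Total RNA of 6 cultures was made into mRNA libraries and sequenced on the DNBSEQ platform. The authors deposited estimated counts per gene with decimals, which were rounded to whole numbers here, and between 89.6% and 90.1% of the values of a library were whole already. The deposited TPM values were scaled by the authors to 1000000 per library over the listed genes, and the deposited FPKM values served only to check the order of levels. The submitters' processing notes name HISAT2 2.2.1, Bowtie2 2.4.5, RSEM 1.3.1 and GRCm38 (mm10), without roles. The 6 columns of group averages were not used. Columns headed Ctrl were assigned to the WT label with the same number.

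Counts were fitted with edgeR 4.0.16 (R 4.3.3): TMM scaling, filterByExpr with a minimum count of 10, the quasi-likelihood test without a block, and Benjamini-Hochberg adjustment at 0.05. The SE was taken as the absolute change over the root of the F statistic. Pairs were compared on log2(CPM + 0.5). No pair of replicates agreed within sampling noise (chi-square per degree of freedom 4.43 to 8.66). In the deviations from group means, same-numbered libraries correlated at 0.41, 0.37 and 0.23 and differently numbered ones between -0.30 and -0.02 over genes, so the numbers pair the libraries. Sequencing batches are mentioned in the series text but not mapped to libraries. In data simulated for KD against WT on 13562 genes, the fit recovered 74.6%, 86.6% and 90.9% of genes changed 1.5-, 2- and 3-fold. It also called 8 unchanged genes. The simulated libraries were drawn independently, without the shared deviations of same-numbered libraries, so these shares may differ from those in the real data.

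The members and all gene lists were chosen with earlier results of these data known, so lists are described by counts and medians without a set test. Named genes were the 10 members and Ybx1, every tested gene of a short list or up to 4 called genes of a longer one with the largest changes, some pathway genes by name, and the 5 genes most alike in pattern. Not every gene that this rule allows is named. Alternatives were RLE, upper-quartile and total-count scaling, no filter, 1 CPM in 3 libraries, DESeq2 1.42.0, limma-voom (limma 3.58.1), limma-trend on log2(TPM + 1), the replicate block, a threshold of 0.01, and leaving out each library or pair. Promoter windows are from RefSeq on GRCm38.p6, and gene positions from GENCODE M21.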

Additional observations from a re-analysis of the deposited data

How the results depend on the processing

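Neurog2 and Insm1 stayed past the threshold in all 18 alternatives, with log2 fold changes of 1.38 to 1.87 and 1.22 to 1.62. Eomes, Neurod1 and Hes6 did so in 17, and lost the call only without replicate 2 of both groups (adjusted p = 0.0733, 0.0837 and 0.0564). The fits without replicate 1 or replicate 3 of both groups also hold 2 libraries per group, and there these genes kept their calls. Btg2 kept its call in 9 of 18, losing it with upper-quartile scaling (adjusted p = 0.0619) and in 8 of the 9 fits with libraries left out, all but that without WT replicate 3. Gadd45g and Mfap4 passed in 3 each, namely with the replicate block, on TPM, and without WT replicate 3 and WT replicate 1, respectively. No direction of a tested member changed, and Ybx1 ranged from -2.72 to -2.29. The number of members called higher was 5 with upper-quartile scaling and at a threshold of 0.01, 8 with the block and on TPM, and between 2 (without replicate 2) and 7 with libraries left out.

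Over all genes, the replicate block gave 2539 higher and 2470 lower calls, a threshold of 0.01 gave 629 and 634, and log2(TPM + 1) gave 2107 and 1053, so that 66.7% of calls were higher on TPM against 50.2% with the counts. Calls ranged from 135 to 1612 higher and from 93 to 1583 lower with libraries left out, the fewest without replicate 2 and, for single libraries, 779 and 797 without WT replicate 2. The block changed the calls of Gadd45g and Mfap4 and of no other member. At this depth a member with no count may reach 0.184 CPM, and without a filter on low counts neither Neurog1 nor Neurod4 passed the test.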
